A study of Homo sapiens with 6 samples.

Results

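The genes described here encode integrin subunits of an epithelial monolayer, the chains that pair as an alpha and a beta subunit to hold cells to the matrix beneath them. They were chosen by symbol from a list of 10 subunits, and every array probe set annotated to exactly 1 of those symbols was taken. This gave 27 probe sets of 9 genes, out of 41091 such probe sets and 19775 genes on the array. ITGB6 had 4 probe sets, each of which also carries the symbol of a second gene, so no value is given for it. Of the 27 probe sets, 13 were above the floor on all 6 arrays, 8 on some arrays and 6 on none. The floor is a signal of 16.2, the median of all values, below which signals were treated as background.

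The cells were Caco-2, an established human colon carcinoma line that takes on features of absorptive enterocytes when confluent. They had grown for 14 days on a permeable support, which was then set over THP-1 cells, a human monocytic leukaemia line turned into macrophage-like cells with phorbol myristate acetate (PMA) over 4 days. RNA of the Caco-2 cells was taken at 0, 1, 3, 6, 24 and 48 h of this coculture, and the labels name no other treatment or genetic change. Each time has 1 array and no replicate, and no Caco-2 culture kept without THP-1 cells was analysed here, so time in culture and the presence of THP-1 cells cannot be told apart. All values below have n = 1, no test was possible, and 2 times that are close in level cannot be ordered with confidence.

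An integrin has no catalytic activity of its own. Its outer domains bind matrix proteins, its short tails bind talin, kindlin and other adaptors that lead to actin, and the laminin receptor built from ITGA6 and ITGB4 leads to keratin through hemidesmosomes. Intestinal epithelium is known for integrins that bind collagen, laminin and fibronectin, and for ITGAV-containing integrins that release active TGF-beta from its latent complex. In most epithelial integrins the beta chain is ITGB1, while ITGB4 pairs with ITGA6, and ITGB6 and ITGB8 pair with ITGAV.

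Median signals were 15.3 to 16.7 per array, and 12017 to 12296 genes lay above the floor. The epithelial label held: all 9 measurable markers of 10, among them VIL1, CDH1 and EPCAM, were above the floor on all 6 arrays, with a summed signal of 17223 to 19845. Single markers were not constant. From 0 to 48 h FABP1 went from 2086 to 478, SI from 556 to 123 and VIL1 from 2171 to 1406. CDX2 read 89.2 at 0 h, 25.4 at 3 h and 75.0 at 48 h, while KRT20 rose from 207 at 0 h to 836 at 24 h. Of 15 monocyte and macrophage markers, 13 were measurable and 5 to 8 were above the floor, with a summed signal of 537 to 906 whose maximum was at 0 h and whose minimum was at 3 h. PTPRC, the pan-leukocyte phosphatase, stayed between 0.0699 and 5.68, and the myeloid factor SPI1 between 2.19 and 8.52, both under the floor on all arrays. Of the same list, LYZ (199 to 412), AIF1 (43.0 to 360), LAPTM5 (48.8 to 141) and CD14 (41.9 to 59.8) were above it on all 6 arrays, with LYZ highest at 48 h and AIF1 at 0 h. ITGAM, a leukocyte integrin chain, was also above it on all 6 arrays, close to the floor at 16.3 to 24.7. The part of these markers in the results was not tested. For ACTB, the 3′ control signal exceeded the 5′ one, a measure of RNA integrity and labelling, by factors of 51.2, 27.7, 22.9, 18.0, 27.9 and 37.0 in the order of the times. For GAPDH the factors were smaller, at 4.69, 3.81, 4.29, 3.54, 4.72 and 4.23. The ACTB factor was highest at 0 h, the array to which the ratios below refer. Both factors were lowest at 6 h, when several integrin signals were highest, and their part in the results was not tested.

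Most of the measurable subunits rose during the coculture, with ITGB8 and ITGA2 ahead of the others. A gene is called higher or lower when its signal, after the floor, differed at least 2-fold from 0 h and the brighter array was above the floor. By this rule 1, 2, 5, 6 and 5 of the 9 integrin genes were higher at 1, 3, 6, 24 and 48 h. Over all 14760 genes above the floor on at least 1 array, the share called higher was 1.9%, 3.1%, 4.21%, 3.92% and 3.82%. ITGA1 alone among the 9 was called lower, at 6 and 24 h, so that the counts of lower genes were 0, 0, 1, 1 and 0 beside 1.46%, 3.52%, 6.44%, 6.12% and 6.11% of all measured genes. The integrin genes were proposed with earlier results of these data in view, so their share above the background is a description and no test. Counted by probe set, 2, 6, 10, 10 and 7 of the 21 above the floor on at least 1 array were higher, beside 2.82%, 4.99%, 5.88%, 5.06% and 5.36% of all probe sets. The median log2 ratio of the 9 genes was 0.20, 0.44, 1.10, 1.08 and 1.10 at the same times, and that of all measured genes lay between -0.04 and 0. In bulk RNA scaled to the same overall signal, a change in the number of cells that make a transcript and a change in its amount per cell cannot be told apart.

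**Figure D1:**
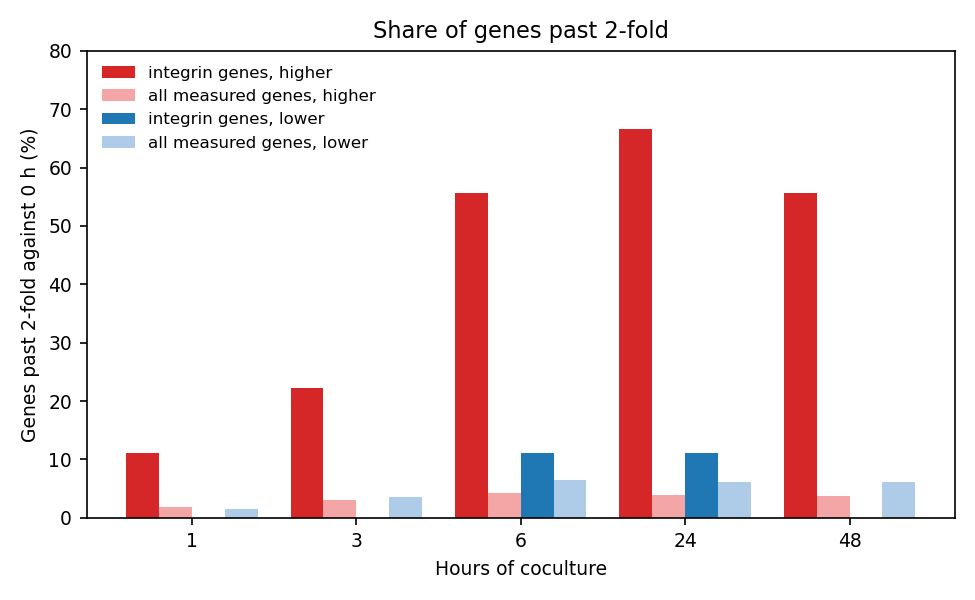
Bars give the percentage of genes at least 2-fold higher (red shades) or lower (blue shades) than at 0 h, for the 9 integrin genes (dark) and for all 14760 measured genes (pale), at each coculture time. The dark red bars reach 55.6% at 6 h and 66.7% at 24 h, while the pale bars stay under 7%.

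**Figure D2:**
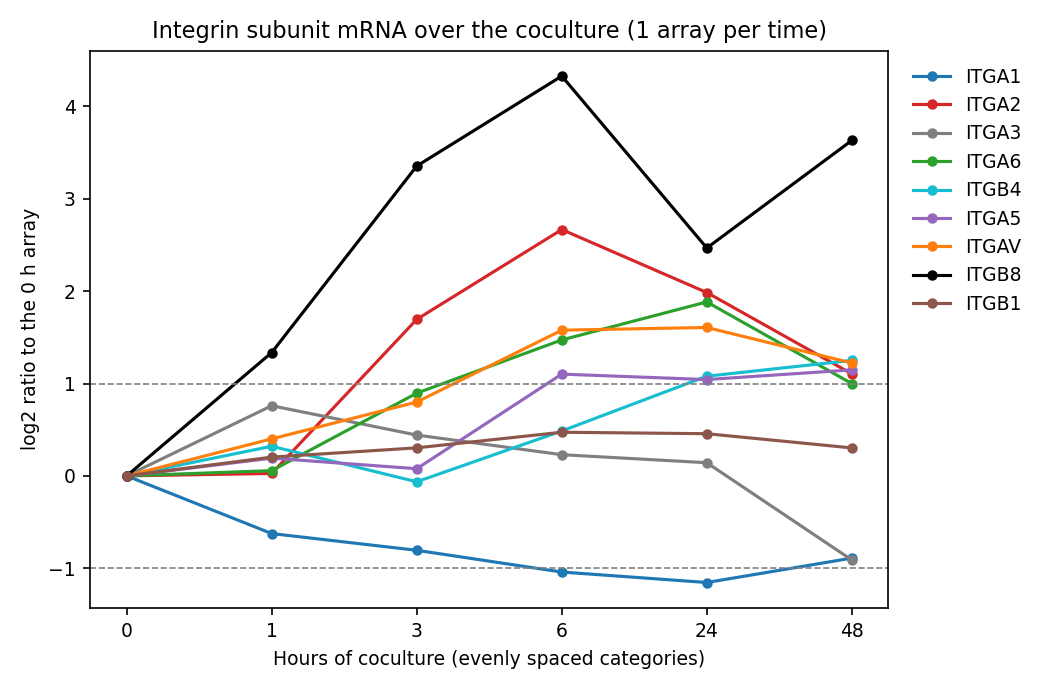
Each line is 1 integrin gene, drawn as the log2 ratio of its signal to the 0 h array, with 1 array per time on evenly spaced categories and dashed lines at 2-fold. ITGB8 reaches 4.33 at 6 h, ITGA2 2.67 at 6 h, and ITGA1 is the line that stays below 0 at every coculture time.

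Of the alpha chains of collagen receptors, ITGA2 was called higher and ITGA1, by a small margin, lower. ITGA2, which pairs with ITGB1 to bind collagen and also laminin, had signals of 370, 376, 1197, 2349, 1464 and 795 at 0, 1, 3, 6, 24 and 48 h. It was level through the first hour, highest at 6 h, and at 48 h still above 0 h. From 3 to 48 h the folds over 0 h were 3.24, 6.35, 3.96 and 2.15. At 6 h it ranked 28 and at 24 h 34 from the top of the 14760 measured genes. A second ITGA2 probe set, dimmer and from a different transcript record, read 31.9, 41.5, 132, 152, 143 and 50.6 in the order of time. It gave the same order at the top, 4.77-fold at 6 h, but its log2 ratio at 48 h was 0.67 and did not pass 2-fold.

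ITGA1, the alpha chain of the other main collagen receptor of epithelium and mesenchyme, read 91.2, 59.1, 52.2, 44.3, 41.0 and 49.2 at 0, 1, 3, 6, 24 and 48 h. All 5 coculture arrays were below the 0 h array, by 2.06-fold at 6 h and 2.23-fold at 24 h, and by log2 ratios of -0.62, -0.81 and -0.89 at 1, 3 and 48 h, which missed the 2-fold line. Both calls rest on 1 probe set. A second read 15.3 to 22.1, next to the floor, with log2 ratios between -0.24 and 0.20, and the last was under the floor on every array. At 6 h the log2 ratio was -0.98 under quantile normalization and also with a common median of expressed probe sets, so that call is lost with either scaling. The 24 h call is lost with the pseudocount (-0.91), against the 1 h array (-0.53) and with the median over probe sets (-0.04).

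ITGA1 and ITGA2 lie on chromosome 5, and in the RefSeq gene order PELO, a factor that rescues stalled ribosomes, is the only protein-coding gene that starts between them. This comparison was chosen after the values were seen. PELO had log2 ratios of -0.99 at 1 h and between -0.35 and -0.12 later, and MOCS2, a molybdenum cofactor enzyme on the far side of ITGA2, between -0.47 and 0.31. Of these 4 genes ITGA2 was the one called higher at any time. The promoter windows of ITGA2 and ITGB8, the integrin genes with the widest range of signal, are shown, each at 1 annotated start. They are taken from RefSeq on GRCh38.p14 and run from 250 bases before to 50 after that start. They lie at chr5:52989102-52989401 and chr7:20330650-20330949, both on the plus strand. The ITGA2 gene starts at 52989352, inside its window. The ITGB8 gene starts at 20329766, ahead of its window, which therefore lies within the gene. Whether the measured ITGB8 transcript begins at the start used here was not tested. Capitals mark GC boxes, GGGCGG on either strand, which SP1 and related factors can bind.
ITGA2: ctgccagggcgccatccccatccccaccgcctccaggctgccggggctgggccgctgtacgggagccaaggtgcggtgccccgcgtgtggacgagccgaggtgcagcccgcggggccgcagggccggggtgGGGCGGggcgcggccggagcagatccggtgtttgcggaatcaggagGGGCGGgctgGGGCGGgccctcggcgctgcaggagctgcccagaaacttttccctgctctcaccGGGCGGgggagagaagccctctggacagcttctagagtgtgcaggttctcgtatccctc
ITGB8: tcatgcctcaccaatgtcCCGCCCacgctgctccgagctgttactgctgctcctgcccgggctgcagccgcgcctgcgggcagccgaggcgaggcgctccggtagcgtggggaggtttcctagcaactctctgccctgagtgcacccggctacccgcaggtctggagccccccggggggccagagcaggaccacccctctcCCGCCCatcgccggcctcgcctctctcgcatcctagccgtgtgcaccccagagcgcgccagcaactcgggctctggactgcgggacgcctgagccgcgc
The ITGA2 window holds 4 GC boxes and the ITGB8 window 2, and their GC contents are 72.7% and 71.7%, against a median of 58.7% over all 35116 windows. GC boxes are found in 45.0% of all windows. Neither window holds the AP-1 letters TGANTCA (7.71% of all windows), the CRE letters TGACGTCA (1.85%) or the NF-kB consensus (5.91%), searched on both strands with overlaps between motifs allowed. Of the 10 listed subunits, 8 had windows, 11 in all, among them ITGB6, which has no value here, while ITGA3 and ITGB4 had none. TGANTCA was found in 1 of the 11, that of ITGA5, the NF-kB consensus in 2, those of ITGA1 and ITGA5, and GC boxes in 6. The ITGA6 windows overlap and share a GC box, which is counted in both. These matches are letters in a window and were not tied to binding of any factor.

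ITGB8 had the widest swing of the 9 genes. It pairs only with ITGAV, binds latent TGF-beta, and has a tail unlike that of other beta chains. Its brightest probe set read 26.6, 67.2, 272, 535, 147 and 330 from 0 to 48 h. Every coculture array was above the 0 h array, and the course had 2 peaks, at 6 and 48 h, with 24 h lower than both. The folds over 0 h were 2.52, 10.2, 20.1, 5.53 and 12.4 in the order of time. Their base of 26.6 is close to the floor, and with the floor value added as a pseudocount the log2 ratios at 3, 6 and 48 h were 2.75, 3.69 and 3.02 in place of 3.36, 4.33 and 3.63, so the size of these folds depends on how low signals are treated. By the main values these ranked 118, 8, 3, 12 and 1 from the top of all 14760 measured genes.

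The other ITGB8 probe sets were dim and agreed in part. The second read 13.5, 26.7, 39.1, 39.9, 30.1 and 13.8, so it was past 2-fold at 3 and 6 h, was back under the floor at 48 h and had no second peak. Another read 7.83, 18.9, 15.7, 42.8, 14.1 and 23.9, with its highest value at 6 h, a drop at 24 h and a smaller recovery at 48 h. The fourth was above the floor at 6 h alone, at 27.5, and the fifth never. All 4 that could be seen were therefore higher at 6 h than at 0 h, with log2 ratios of 0.76 to 4.33, while at 48 h the range was 0 to 3.63 with 2 of the 4 at 0. The late peak is carried by the brightest probe set and the third, and the median over all 5 probe sets was 0 at 3, 24 and 48 h. The 1 h call is lost (log2 ratio 0.84) with the floor at the 65th percentile of values.

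**Figure D3:**
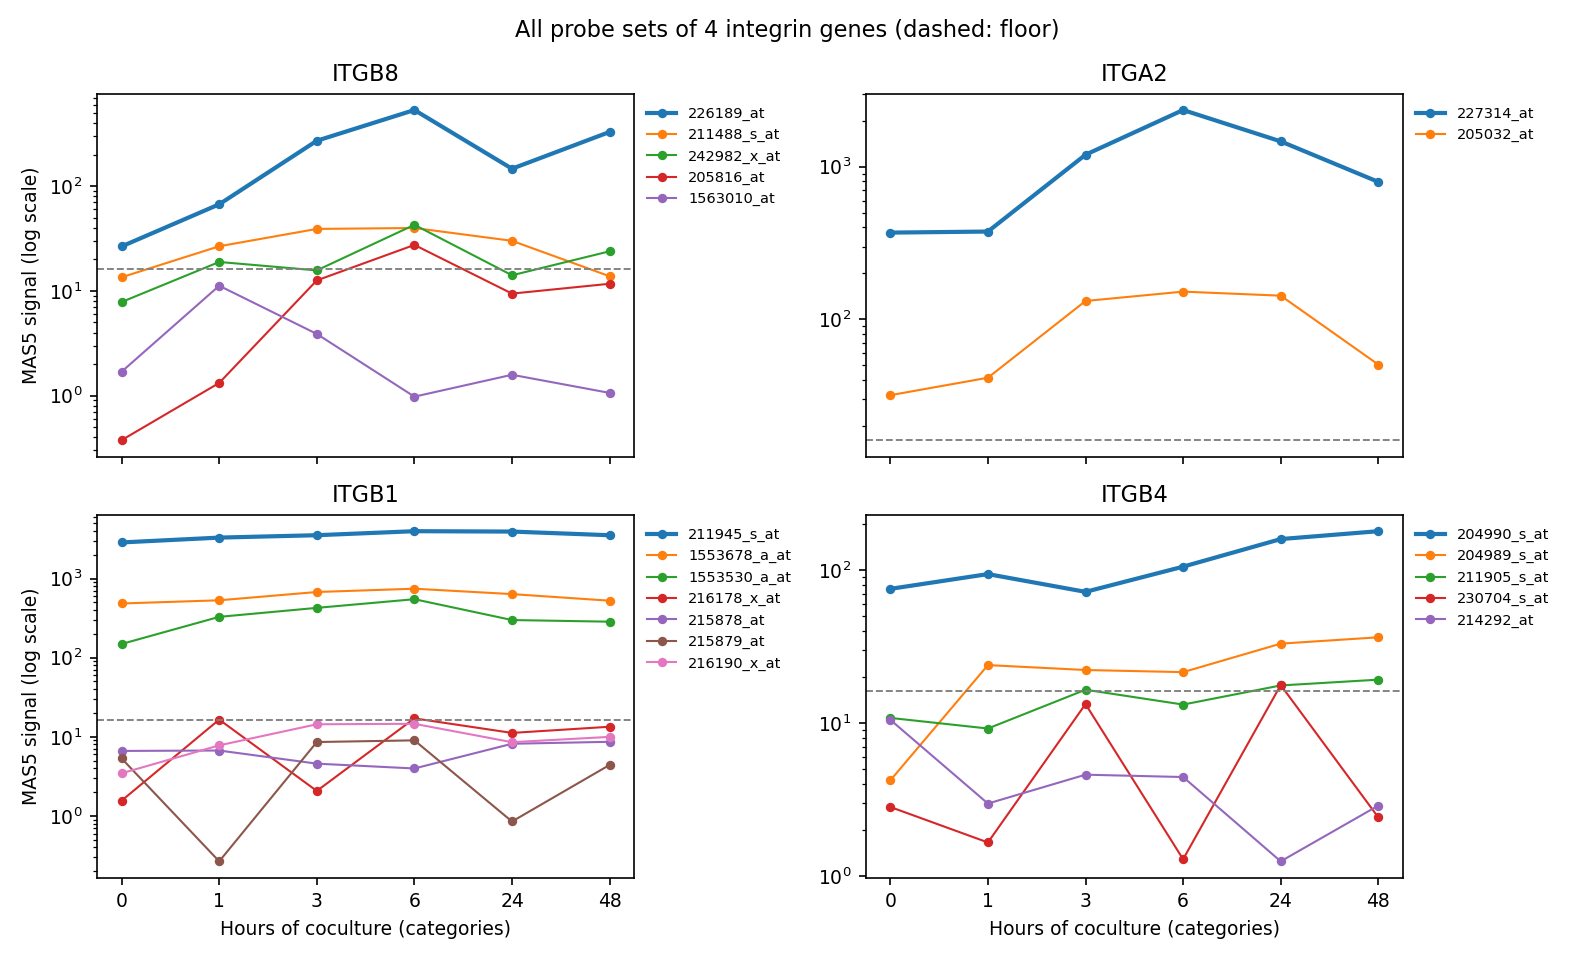
Signals of every probe set of ITGB8, ITGA2, ITGB1 and ITGB4 at the 6 times are plotted on a log axis, with 1 line per probe set, the thick line for the one that stands for the gene, and the dashed line at the floor of 16.2. The thick ITGB8 line runs from 26.6 to 535, both ITGA2 lines peak at 6 h, and the ITGB1 lines differ in slope, with the thick one between 2859 and 3966.

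ITGAV, the partner of ITGB8 and of several other beta chains, read 820, 1083, 1428, 2448, 2498 and 1914 from 0 to 48 h. All 5 coculture arrays were above 0 h, with a plateau at 6 and 24 h that differed by 0.03 on the log2 scale. The folds at the last 3 times were 2.99, 3.05 and 2.33, while 1 and 3 h had log2 ratios of 0.40 and 0.80. ITGAV had no drop at 24 h, where its partner chain ITGB8 lay 1.86 log2 units below its 6 h level.

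ITGA5, the alpha chain of the classical fibronectin receptor, read 91.0, 104, 96.0, 195, 187 and 202 in the order of time. It stayed near its starting level to 3 h, stepped up between 3 and 6 h, and then stayed level, with folds of 2.15, 2.06 and 2.22 at 6, 24 and 48 h. Both ITGAV and ITGA5 were seen through 1 probe set each. All ITGA5 calls stand just past the line, and with the floor value added as a pseudocount the log2 ratios at 6 and 24 h were 0.98 and 0.93. Against the 1 h array the ITGA5 log2 ratios were 0.91, 0.85 and 0.96 at 6, 24 and 48 h, so every call is lost. The ITGAV call at 48 h is lost against it too (0.82).

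Of the laminin-binding chains, ITGA6 and ITGB4 rose and ITGA3 did not pass 2-fold. ITGA6, which pairs with ITGB1 or ITGB4, read 211, 219, 392, 584, 777 and 421 from 0 to 48 h. It was highest at 24 h, 3.69-fold over 0 h and ranked 49 from the top, and 2.77-fold higher at 6 h. At 48 h the log2 ratio of 1.00 fell just short of the line, and it was 1.03 with quantile normalization and 1.04 with the common median, past it. The second ITGA6 probe set read 44.4, 72.1, 176, 222, 151 and 92.1 and was highest at 6 h instead, 5.01-fold over 0 h, and past 2-fold already at 3 h. The pair of probe sets had the same direction at all 5 times and placed the maximum at different times.

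ITGB4, the beta chain with a long cytoplasmic tail that anchors hemidesmosomes, read 75.2, 93.9, 71.9, 105, 159 and 179 in the order of time. It did not move past 2-fold until 24 h, and then had folds of 2.11 and 2.38 at the last times. A second ITGB4 probe set, under the floor at 0 h with 4.22, reached 33.0 and 36.3 there, at least 2.04-fold and 2.24-fold higher. Another read 17.6 and 19.2 there, next to the floor, the fourth was above it at 24 h alone and the fifth was never above it. The median over all 5 gave log2 ratios of 0.13 and 0.24. The 4 visible ITGB4 probe sets all carry the suffix _s_at, given to probe sets that can match more than 1 transcript. Without such probe sets only the fifth is left, under the floor on every array, so the floor rule sets its log2 ratio to 0. Both calls, at 24 and 48 h, are lost in that setting, which cannot show whether ITGB4 changed. Both are also lost against the 1 h array (0.76 and 0.93), and the 24 h call with the pseudocount (0.94). ITGB4 and ITGA5 were the genes with their highest value at 48 h. ITGA3, the third laminin-binding chain and a partner of ITGB1, was dim, at 31.3, 53.0, 42.6, 36.7, 34.6 and 16.7. It was highest at 1 h, with a log2 ratio of 0.76, and lowest at 48 h, with -0.91, and it passed 2-fold at no time against 0 h. From 1 to 48 h its log2 ratio was -1.67.

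ITGB1, the beta chain that ITGA1, ITGA2, ITGA3 and ITGA5 all need to reach the cell surface, was steady in its brightest probe set. It read 2859, 3291, 3528, 3966, 3923 and 3526 from 0 to 48 h. All 5 coculture arrays were above 0 h, by 1.39-fold at most, and the log2 ratios of 0.20 to 0.47 passed the line at no time. A second ITGB1 probe set read 484, 531, 676, 744, 636 and 525, with a highest log2 ratio of 0.62. Another read 149, 328, 426, 548, 299 and 285, and was 2-fold or more higher at 1, 3, 6 and 24 h, with 3.68-fold at 6 h. The 3 probe sets of ITGB1 that were above the floor on all arrays shared the direction and the peak at 6 h and differed in size. The other 4 were above the floor on 2 arrays at most.

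In the probe sets that stand for the genes, the order in which the subunits first passed 2-fold was ITGB8 (1 h), ITGA2 (3 h), ITGA6, ITGA5 and ITGAV (6 h) and ITGB4 (24 h). Only ITGA2 and ITGB8 were higher at 3, 6, 24 and 48 h, as were 0.684% of all measured genes. In all, 6 of the 9 were higher and 1 was lower at 1 or more times, beside 8.98% and 12.9% of measured genes. Of the 21 pairs of integrin gene and time that were called, 19 passed 2-fold under both other scalings and both other floors. The exceptions were ITGA1 at 6 h and ITGB8 at 1 h. That count leaves out the pseudocount, the other probe set rules and the 1 h baseline, and 1 or more of these removed further calls. Lost were ITGB8 at 3, 24 and 48 h, ITGA2 and ITGAV at 48 h, and ITGA1 at 24 h. The same held for ITGB4 at 24 and 48 h and ITGA5 at 6, 24 and 48 h.

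The genes outside the group with the most similar courses were taken by the smallest root mean square difference of log2 ratios over the 5 coculture times, among 14751 measured genes. For ITGA2 these were TNFAIP8, a TNF-inducible gene linked to cell survival (0.19), HKDC1, a hexokinase-like protein (0.31), TNFRSF9, a costimulatory receptor (0.40), FSCN1, the actin bundler fascin (0.43), and NUP58, a nuclear pore protein (0.45). TNFAIP8 had log2 ratios of 0.05 at 1 h, 2.56 at 6 h and 1.23 at 48 h, where ITGA2 had 0.03, 2.67 and 1.10. For ITGB8 no gene came as near. The first were MACC1, a regulator of the receptor gene MET in colon cancer (0.81), PMEPA1, an inhibitor of TGF-beta signalling (0.89), and MEIS3P1, PHLDA1 and SLC7A8 (1.08, 1.08 and 1.10).

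MACC1 is also the protein-coding gene next to ITGB8 on chromosome 7 in the RefSeq order, which was looked up after its values were seen. Its brightest probe set read 125, 513, 947, 1008, 745 and 815 from 0 to 48 h, with folds of 8.07 at 6 h and 6.53 at 48 h. Like ITGB8 it was lower at 24 h than at 6 and 48 h, though 745 and 815 are close. The other MACC1 probe sets did not share this course, reading 91.8 to 147 and 110 to 155 over the 6 arrays. ABCB5, the next gene on the other side of ITGB8, was under the floor on all arrays, and SP8 and SP4 beyond it had log2 ratios of -0.93 to 0.51.

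**Figure D4:**
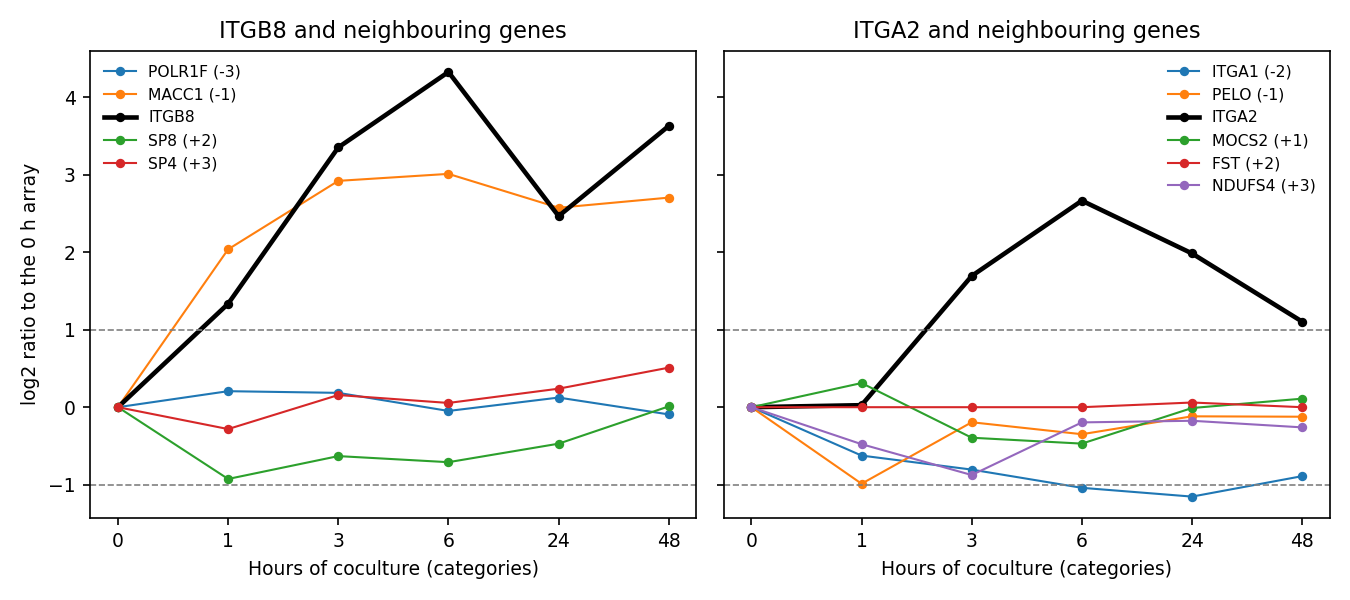
Lines give log2 ratios to 0 h for ITGB8 (left) and ITGA2 (right), in black, and for measured protein-coding genes among the 3 on each side in chromosome order, with their place in brackets. MACC1, at place -1, is the one neighbour near the ITGB8 line, and ITGA1, at place -2 beside ITGA2, runs below 0.

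The remaining integrin genes, chosen as all subunits outside the group, did not pass 2-fold. All 16 had probe sets, 12 were above the floor on at least 1 array, and 0 of the 12 were higher or lower at any time, with medians between -0.17 and 0. At 1 or more times 8.98% of all measured genes were higher and 12.9% lower, so a count of 0 among 12 genes is near the background. ITGB5, another partner of ITGAV, read 581, 547, 618, 610, 487 and 402. ITGAE, known from intraepithelial lymphocytes, went from 359 at 0 h to 199 at 6 h, a log2 ratio of -0.85. ITGA7 (-0.72 at 48 h), ITGA9 (-0.69 at 6 h) and ITGB3 (0.83 at 24 h, from under the floor) were the next largest. The leukocyte chains ITGB2 and ITGAM read at most 23.6 and 24.7.

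Hemidesmosome partners were higher at 6 h, when ITGA6 was called higher and ITGB4 was not (log2 ratio 0.49). All 3 measured of 4 were higher at 6 h and 2 at 24 h, against 4.21% and 3.92% of all measured genes. At 1, 3 and 48 h the counts were 1, 1 and 0, against 1.9%, 3.1% and 3.82%. PLEC, the plectin that ties ITGB4 to keratin, read 99.1, 232, 290, 327, 210 and 99.1, 3.30-fold higher at 6 h and back at its 0 h level at 48 h, where ITGB4 was at its highest. CD151, a tetraspanin of laminin-binding integrins, was seen through 1 probe set. It read 10.9 at 0 h, under the floor, and 49.5 at 24 h, at least 3.05-fold higher. DST, which encodes dystonin, was 2.09-fold higher at 6 h, but log2 ratios of its 7 visible probe sets ran from -0.23 to 1.49.

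Among cytoplasmic adaptors, 6 of 37 measured genes were higher at 1 or more times and 1 was lower, beside 8.98% and 12.9% of all measured genes. ZYX, zyxin of mature focal adhesions, read 103, 143, 224, 282, 186 and 187, 2.75-fold higher at 6 h, and its other visible probe set moved by a log2 ratio of 1.76. FERMT2, a kindlin that binds beta tails, was 2.19-fold higher at 6 h, with a log2 ratio of -0.08 by 48 h. GIT1 was at least 2.50-fold higher at 24 h from under the floor. PARVA, BCAR1 and NEDD9 stood just past the line, with folds of 2.09, 2.09 and 2.10 at their highest. Log2 ratios of the visible probe sets at those times ran from 0.18 to 2.52 for FERMT2, from 0.08 to 2.49 for NEDD9, from 0.42 to 1.06 for BCAR1 and from -0.33 to 1.16 for PARVA. TLN2, a talin, was 2.42-fold lower at 24 h, with -0.37 in its other visible probe set. The list medians lay between -0.08 and 0.12, close to that of all genes.

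Membrane partners gave 2 of 11 genes higher and 1 lower at 1 or more times, beside 8.98% and 12.9% of all measured genes. CAV1, caveolin, was highest at 48 h, reading 101, 133, 144, 207, 413 and 455. It was 4.50-fold higher at 48 h, a log2 ratio of 2.17, with 1.20 in its other visible probe set. SDC4, a syndecan that acts with the fibronectin receptor, read 1531, 3384, 3915, 4006, 2626 and 2068 and was higher from 1 to 6 h, by 2.62-fold at 6 h. CD47, a partner of ITGAV integrins, was 2.68-fold lower at 48 h, with 3 probe sets between -2.33 and -0.95. CD82 was above the floor at 3 h alone.

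Of 21 measured matrix ligands 1 was higher and 2 were lower at 1 or more times, near the background of 8.98% and 12.9%. SPP1, the RGD ligand osteopontin, was higher at 1, 6, 24 and 48 h, reading 16.8, 41.0, 7.76, 58.6, 44.1 and 66.1, close to the floor and not steady. LAMA1, a laminin alpha chain, went from 345 at 0 h to 69.4 at 24 h and 161 at 48 h, 4.97-fold lower at 24 h (log2 ratio -0.70 in its second probe set), and LAMB2 was 2.03-fold lower at 48 h. COL4A2, a basement membrane collagen, had a log2 ratio of -0.95 at 48 h. FN1, the ligand of the ITGA5 receptor, read 5429 to 6064 over the 6 arrays in its brightest probe set, while its 7 visible probe sets had log2 ratios of 0 to 1.92 at 3 h. Among the 7 measured genes of latent TGF-beta and its carriers, 1 was higher and 2 were lower at 1 or more times, beside 8.98% and 12.9% of all measured genes. TGFB1 read 193, 244, 282, 528, 436 and 198. It was 2.73-fold higher at 6 h, the time of the ITGB8 maximum, and still called higher at 24 h (log2 ratio 1.17), where ITGB8 had dropped. At 48 h, where ITGB8 was again high, TGFB1 was at its 0 h level. LTBP3, a carrier of latent TGF-beta, was 2.12-fold lower at 48 h, though its 3 visible probe sets ran from -1.08 to 0.61. TGFB3 was at least 2.85-fold lower at 1 h. TGFB2 had a highest log2 ratio of 0.72 at 24 h, where its 3 visible probe sets ran from -0.625 to 0.72.

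**Figure D5:**
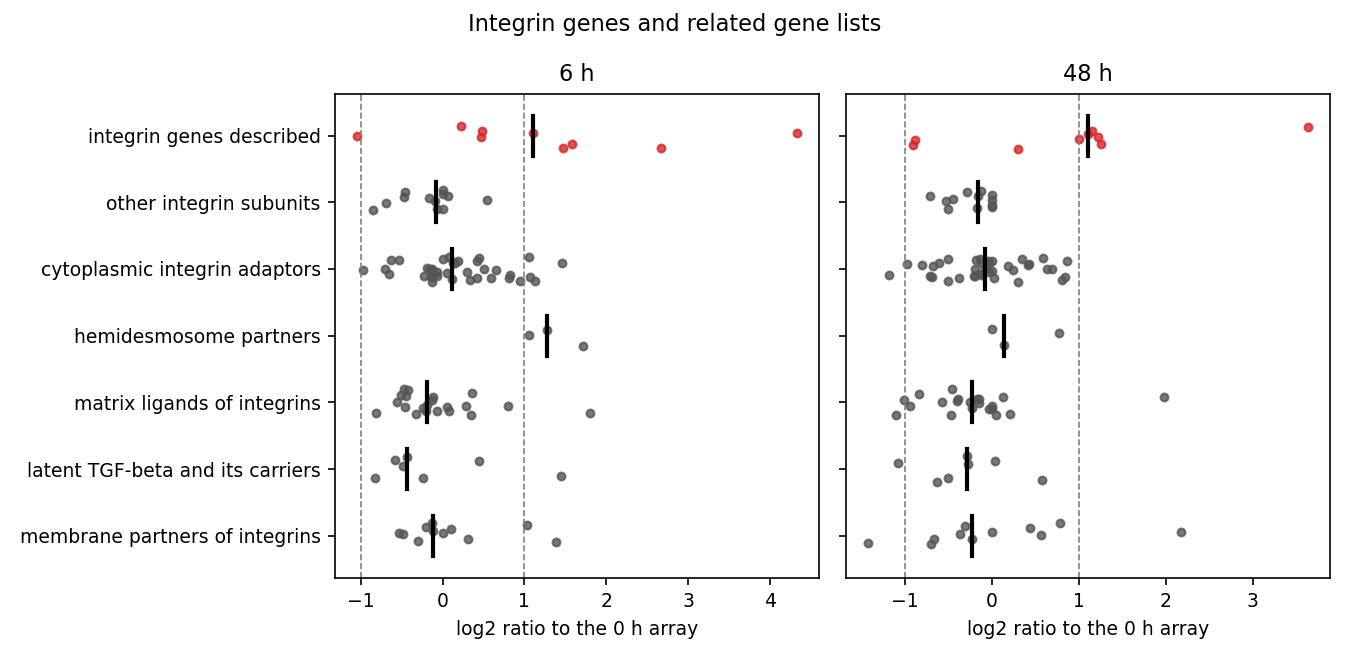
Points are single genes, drawn as log2 ratios to 0 h at 6 h (left) and 48 h (right), with a black bar at each list's median and dashed lines at 2-fold. The integrin genes described here (red) have medians of 1.10 at both times, while 12 other integrin subunits lie between the dashed lines.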

How the data were processed

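Caco-2 RNA from 6 coculture times was measured on 1 Affymetrix array each, from 4 µg total RNA per the labels' protocols. The deposited values are signal intensities on a linear scale, made by the authors with MAS5 per the submitters' processing notes. Its version and scaling target were not given in the sources used here. The trimmed mean (2% off each end) was 93.8 on every array, and nothing was rescaled. MAS5 subtracts mismatch signal, so dim values are noisy. The number of arrays limits the precision.

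Signals below the floor of 16.2 were set to it and log2 was taken. Of 54675 probe sets, 41091 with 1 symbol were kept, while 1801 carried several symbols and 11777 none. Gene identifiers of 41043 probe sets matched RefSeq (GRCh38.p14), which updated symbols. Each gene was represented by its brightest probe set (mean log2). No test over times was possible. From each related list, up to 4 genes with the largest log2 ratios were to be named, others being chosen after their values were seen. Members, lists and rules were chosen with earlier results of these data known. Alternatives tried were 2 scalings, 2 floors, a pseudocount, 2 probe set rules, another baseline and a 1.5-fold line. Python 3.11.15 with pandas and numpy was used.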

Additional observations from a re-analysis of the deposited data

How the results depend on the processing

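Among called integrin ratios 1 reversed, and several near 2-fold crossed the line. With the median of all probe sets per gene, ITGA1 at 6 h turned from -1.04 to 0.20, the higher counts became 0 at 1 h and 3 at 48 h, and the lower counts 0 at 6 and 24 h. Quantile normalization and a common median each left 0 genes lower at 6 h. The floor at the 65th percentile (37.5) left 0 genes higher and 1 probe set past 2-fold at 1 h, and the floor at the 30th (6.38) put 5 probe sets past it there. With the pseudocount, 0 genes were higher at 1 h, 0 lower at 6 and 24 h, and 1 and 7 probe sets passed at 1 and 24 h. Without _x_at and _s_at probe sets, which leaves 8 genes, 4 probe sets passed at 48 h. Against the 1 h array 2 genes were higher at 48 h, 0 lower at 6 and 24 h and 1 lower at 48 h, with 7, 6 and 3 probe sets past 2-fold at 6, 24 and 48 h. At 1.5-fold, 2 genes were higher and 1 lower at 1 h with 6 probe sets, 4 higher and 1 lower at 3 h, and 2 lower at 48 h with 12 probe sets. Of 346 single ratios under the alternatives, 313 kept their side of the line, 6 of them with the opposite sign, 27 lost a call, 5 gained one and 1 reversed. The cause was not tested. No paired analysis was possible because each time has 1 array. No array could be left out, and signals near the floor limit ITGA3, the dimmer ITGB4 probe sets and ITGB8, also in its brightest probe set at 0 h.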
